A study of Mus musculus with 96 samples.

Results

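Guanylate-binding proteins (GBPs) are large GTPases that interferon induces in many cell types and that act in defence against intracellular microbes. In the mouse their genes lie in clusters on chromosomes 3 and 5. Interferon gamma signals through the kinases JAK1 and JAK2 to genes that carry GAS motifs in their DNA, while type I interferon acts largely on genes that carry ISRE motifs. The same signals raise the genes of antigen processing for MHC class I in differentiated cells, and embryonic stem cells are known for a weak response to interferon.

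Cells of the mouse embryonic stem cell line E14 were parted here by whether they held transcripts of Gbp2 or Gbp3. The cells are labelled wild-type, with C57BL/6 as their strain background, and were cultured in serum/LIF, a medium of serum plus the cytokine LIF that keeps stem cells from differentiating, with no interferon or other treatment named in the labels. RNA was sequenced from single cells, each of them 1 sample of the series, and counts were analysed for 61 serum/LIF cells. A cell was called Gbp-positive at 10 or more counts of Gbp2 or of Gbp3, and Gbp-negative at 0 counts of both. The rule gave 35 Gbp-positive and 23 Gbp-negative cells of the 61, and left out 3 cells with 1 to 9 counts. Cells of the study's 2i culture and its empty wells were not analysed here. The labels name no separate cultures, so p-values measure the spread between cells and say nothing of other cultures.

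The cells were selected on their counts of Gbp2 and Gbp3, so the values of these genes are a description. Gbp2 (chr3:142620602-142638008, plus strand, GRCm38) had 0 to 4596 counts in Gbp-positive cells, with a median of 1191, against 0 in each Gbp-negative cell. Gbp3 (chr3:142560026-142573209, plus strand) had 0 to 2592 counts in Gbp-positive cells, with a median of 100, against 0 in each Gbp-negative cell. Of the 35 Gbp-positive cells, 24 had 10 or more counts of both genes, 8 had Gbp2 with no count of Gbp3, and 3 reached the limit through Gbp3 alone. Counts near the limit were few. Just inside it lay the cell in well B01, with 21 counts of Gbp2, and the cell in G06, with 27 counts of Gbp3. Just outside lay the 3 cells left out, C10 with 2 counts of Gbp3, D09 with 1 of Gbp2 and H03 with 2 of Gbp2. GBP genes share sequence with each other, and how reads that fit several genes were counted is not given in the sources used here.

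**Figure D1:**
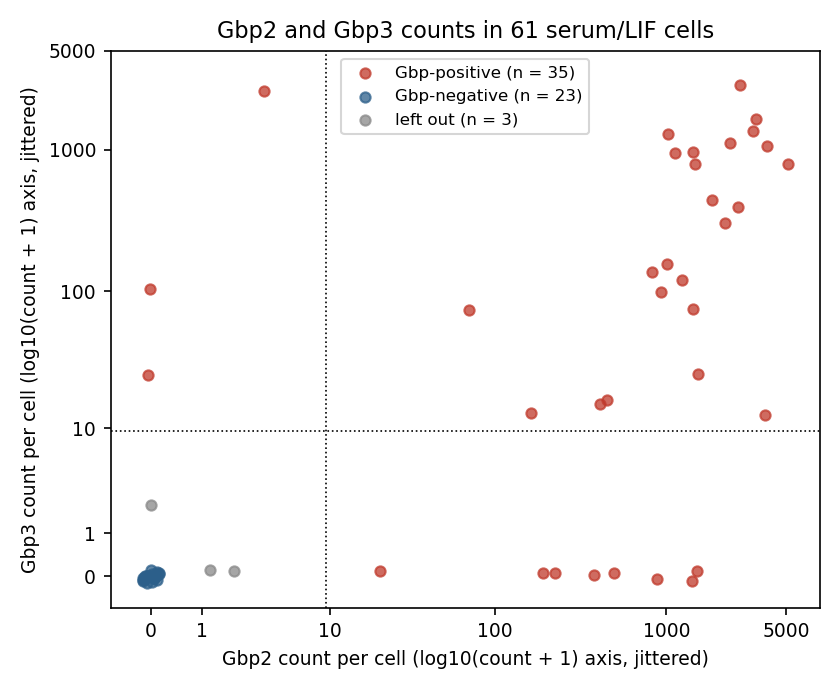
Counts of Gbp2 (x axis) and Gbp3 (y axis) in each of the 61 cells, on log10(count + 1) axes with a small jitter; dotted lines mark the limit of 10 counts. The 35 Gbp-positive cells lie beyond either line, 24 of them beyond both, the 23 Gbp-negative cells lie at 0 for both genes, and the 3 cells left out have 1 or 2 counts.

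The cells differed in pluripotency state and in chromosome 14, and these values stand beside each result that follows. A naive pluripotency score, the mean z-score of 14 measured naive genes, was -0.469 ± 0.393 in Gbp-positive cells and 0.645 ± 1.23 in Gbp-negative cells (SD, n = 35 and 23; permutation test, adjusted p over 8 measures 0.000160). The score has a gap between 0.576 and 1.03. Above it lay 0 of 35 Gbp-positive and 10 of 23 Gbp-negative cells, together with the left-out cell H03. Transcripts of chromosome 14 took 3.19 ± 0.22% of counts in Gbp-positive cells and 2.78 ± 0.55% in Gbp-negative cells (permutation test, adjusted p = 0.000480). A share under 0.85 of the median was found in 0 Gbp-positive and 6 Gbp-negative cells. Of these, B05, B09, E01, F07 and H10 also lay above the naive gap, and F01 lay at its lower edge. The differences in naive score and in chromosome 14 share thus rest largely on the same cells and cannot be told apart. Total counts were 2417702 to 6787261 in Gbp-positive cells and 2892439 to 5338773 in Gbp-negative cells (adjusted p = 0.761), and genes detected averaged 8486 in Gbp-positive and 8086 in Gbp-negative cells (adjusted p = 0.231, permutation tests). Mitochondrial share (adjusted p = 0.312), S phase score (0.356) and G2/M score (0.761) did not pass the test either. The 4 upper plate rows (A to D) held 17 Gbp-positive and 14 Gbp-negative cells, and rows E to H held 18 Gbp-positive and 9 Gbp-negative cells.

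**Figure D2:**
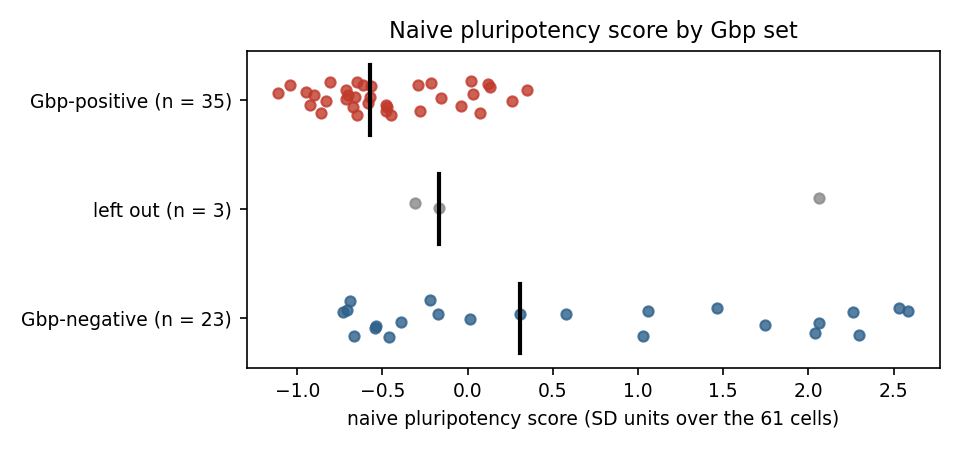
Naive pluripotency score (x axis, SD units over the 61 cells) by Gbp set (y axis); each point is a cell and black bars are medians. The 35 Gbp-positive cells lie between -1.11 and 0.347, whereas 10 of the 23 Gbp-negative cells lie at or above 1.03.

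Across 10866 genes, tested without Gbp2 and Gbp3, 131 were called at an adjusted p under 0.05 (1.21%), 74 of them higher (0.681%) and 57 lower (0.525%) in Gbp-positive cells. The test was edgeR's quasi-likelihood test, with each cell's share of detected genes as a covariate. A permutation test of log2(CPM + 1) called 292 (2.69%), 167 higher (1.54%) and 125 lower (1.15%), of which 36 and 49 were called by edgeR too. The median log2 fold change over all tested genes was 0.05. Expression is given in CPM, counts scaled by TMM to an equal library size, fold changes are edgeR's with Gbp-positive over Gbp-negative cells and 1 SE, and adjusted p-values are edgeR's unless a permutation test is named.

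Of 9 GBP paralogs listed beside Gbp2 and Gbp3, 6 are in the table and 2 passed the filter on low counts, Gbp7 and Gbp4. Both had 0 counts in every Gbp-negative cell, so they passed the filter through other cells alone and could not come out lower. Their values are therefore given gene by gene, with nothing read from their number. Gbp7 (chr3:142530342-142550149, plus strand) had 0 to 356 CPM in Gbp-positive cells, with a median of 12.7 and 23 of 35 cells above 0, against 0 in all 23 Gbp-negative cells. The Gbp-negative cells thus lay at the bottom of the range of the Gbp-positive ones. Set against a floor of 3 counts summed over the Gbp-negative cells, Gbp7 was at least 1635-fold higher in Gbp-positive cells (adjusted p = 2.9e-05). Such a bound, here and below, covers counting error only and not the spread between cells or copied reads. Gbp4, of the chromosome 5 cluster, was above 0 in 12 of 35 Gbp-positive and 0 of 23 Gbp-negative cells, at least 923-fold higher on the same floor (adjusted p = 0.0011, permutation test adjusted p = 0.076). Gbp8, Gbp9, Gbp2b and Gbp11 fell below the filter. Gbp8 was detected in 7 Gbp-positive and 0 Gbp-negative cells, Gbp9 in 8 Gbp-positive and 2 Gbp-negative cells, Gbp2b in 2 Gbp-positive and 0 Gbp-negative cells, and Gbp11 in none of either set. Gbp8 and Gbp9 overlap Gbp4 on the same strand, so their counts cannot be told apart with certainty.

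The neighbours of the chromosome 3 cluster did not pass the test. Gtf2b, a general transcription factor gene, averaged 102 ± 112 CPM in Gbp-positive cells and 82.7 ± 81.8 CPM in Gbp-negative cells (SD; log2 fold change 0.40 ± 0.74, adjusted p = 0.989). Pkn2, a protein kinase gene, averaged 165 ± 118 CPM in Gbp-positive cells and 127 ± 131 CPM in Gbp-negative cells (0.26 ± 0.41, adjusted p = 0.987). The microRNA gene Mir6381 was counted in 29 Gbp-positive and 0 Gbp-negative cells, but it lies on the opposite strand within an exon of Gbp2 in 2 of 2 Gbp2 transcripts. The sources do not say that strand was used in counting, so its counts cannot be told apart from reads of Gbp2. Mir6381 is kept in the numbers of genes called and of named genes, but nothing is read from its own call. A gene without a symbol in the tables used, ENSMUSG00000028269, was above 0 in 28 Gbp-positive cells (highest 1985 CPM) and in 3 Gbp-negative cells (highest 9.33 CPM), with a log2 fold change of 9.65 ± 1.14 (adjusted p = 4.8e-08).

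Part of the list of antigen processing for MHC class I was higher in Gbp-positive cells. Of 16 tested members, 5 were called higher, 0 lower and 11 not called, where 0.681% of all tested genes were higher, and 16 of 16 fold changes were above 0 (median log2 fold change 1.94, against 0.05 for all genes). The permutation test called 8 of the 16 higher, where it called 1.54% of all tested genes higher. Erap1 had 10 or more counts in 24 Gbp-positive and 0 Gbp-negative cells, and Psmb8 in 30 and 2. Both passed the filter on Gbp-positive cells alone, so their calls add little to the number called. Tap2 and Tapbpl were above 0 in 16 and 13 Gbp-positive cells, but in 2 and 4 Gbp-negative cells. The signs and the median include all of these genes, so they are a description only. The 5 were Psmb8, Psmb10, Psme2, Erap1 and Tapbp, given here in the order of their steps from protein breakdown to peptide loading. Of these, Erap1 alone was also called both with the naive score as a covariate and in the cells below its gap. Among the 11 not called, the chaperone genes Canx, Pdia3 and Calr had log2 fold changes of 0.01 ± 0.14, 0.40 ± 0.30 and 0.44 ± 0.32 (adjusted p = 0.997, 0.853 and 0.846).

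Psmb8, a catalytic subunit of the immunoproteasome, had 0 to 646 CPM in Gbp-positive cells, with a median of 133, against 0 to 71.8 CPM with a median of 0 in Gbp-negative cells. It was above 0 in 31 of 35 Gbp-positive and 5 of 23 Gbp-negative cells, and the log2 fold change was 5.22 ± 1.11 (adjusted p = 0.0043). The ranges overlapped at their low ends. Psmb10, another catalytic subunit, averaged 361 CPM in Gbp-positive cells and 84.5 CPM in Gbp-negative cells (2.09 ± 0.50, adjusted p = 0.0146). Psmb8 overlaps Gm20496 on the opposite strand, which was higher too (5.17 ± 1.14, adjusted p = 0.0058), so the reads of the pair cannot be separated.

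Psme2, a subunit of the PA28 proteasome activator, had 66.9 to 1717 CPM in Gbp-positive cells, with a median of 456, against 0 to 502 CPM with a median of 38.9 in Gbp-negative cells. All 35 Gbp-positive cells and 19 of the 23 Gbp-negative cells held it, at a log2 fold change of 2.39 ± 0.51 (adjusted p = 0.0045). Psme2 lies on chromosome 14, and without the 6 Gbp-negative cells of low chromosome 14 share the fold change was 2.02 (adjusted p = 0.0065). Its near copy Psme2b moved alike (2.31 ± 0.53), and reads may be shared between them. Psme1, the partner subunit and also on chromosome 14, passed the permutation test (adjusted p = 0.0025) but not edgeR (1.49 ± 0.46, adjusted p = 0.112).

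Erap1, the peptidase that trims peptides in the endoplasmic reticulum, had 0 to 486 CPM in Gbp-positive cells, with a median of 74.9, against 0 to 1.02 CPM with a median of 0 in Gbp-negative cells. Counts of 10 or more were found in 24 Gbp-positive and 0 Gbp-negative cells, and the log2 fold change was 9.86 ± 1.18 (adjusted p = 4.8e-08). Tapbp, which encodes tapasin of the peptide-loading complex, had 0.441 to 931 CPM in Gbp-positive cells, with a median of 312, against 0 to 212 CPM with a median of 9.21 in Gbp-negative cells. Its groups overlapped, and the log2 fold change was 3.40 ± 0.78 (adjusted p = 0.0079).

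The MHC class I molecules themselves were less clear. H2-K1, a classical heavy chain, averaged 150 ± 161 CPM in Gbp-positive cells and 33.98 ± 82.6 CPM in Gbp-negative cells (SD; log2 fold change 1.79 ± 0.92, adjusted p = 0.613, permutation test adjusted p = 0.0025). H2-D1, another classical heavy chain, averaged 93.9 CPM in Gbp-positive cells and 27.3 CPM in Gbp-negative cells. It passed neither test (2.17 ± 1.03, adjusted p = 0.532, permutation test adjusted p = 0.260). B2m, the light chain, averaged 105 ± 90.2 CPM in Gbp-positive cells and 34.04 ± 40.7 CPM in Gbp-negative cells (1.60 ± 0.65, adjusted p = 0.367, permutation test adjusted p = 0.0070). H2-Q4, a non-classical class I gene with near copies, was called higher (3.80 ± 0.99, adjusted p = 0.030), though not without the cell in F05 (adjusted p = 0.051). Tap1 and Psmb9, the peptide transporter and immunoproteasome genes that lie beside Psmb8, had log2 fold changes of 0.22 ± 1.23 and 0.59 ± 1.28 (adjusted p = 0.994 and 0.989). Their levels were low: Tap1 was above 0 in 14 Gbp-positive and 7 Gbp-negative cells, and Psmb9 in 11 Gbp-positive and 6 Gbp-negative cells.

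**Figure D3:**
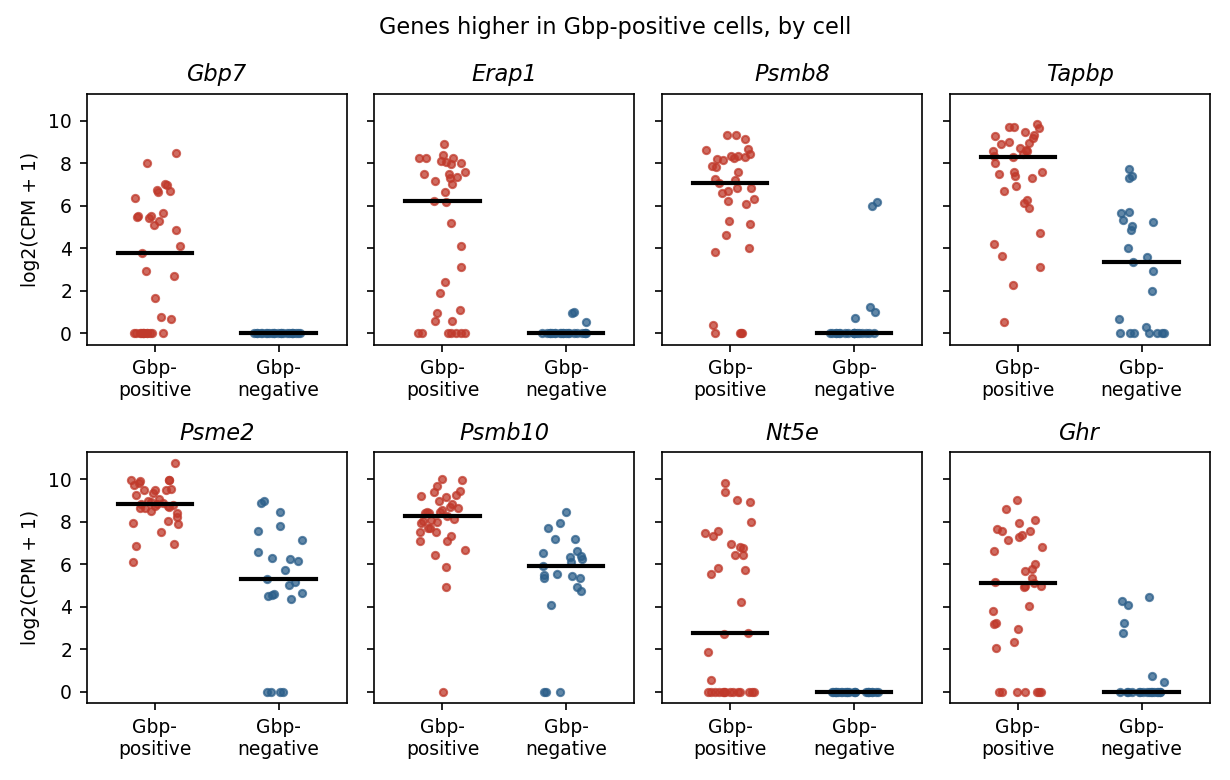
Expression as log2(CPM + 1) (y axis) of 8 genes called higher in Gbp-positive cells, in the 35 Gbp-positive (left) and 23 Gbp-negative cells (right) of each panel; points are cells and black bars are medians. Gbp7 and Nt5e stay at 0 in all 23 Gbp-negative cells, and the ranges of all 8 genes overlap between the sets.

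Gbp-positive cells varied among themselves. Of Gbp7, Erap1, Psmb8 and Tapbp, 4 genes chosen after their values were seen, 16 Gbp-positive cells held all 4 at 10 counts or more, 11 held 3, 4 held 2, 3 held 1 and 1 held none. Whether they occur together more often than their separate counts give was not tested. Of the cells just inside the limit, B01 held 0 CPM of Gbp7, Erap1 and Psmb8 and 0.441 CPM of Tapbp, and G06 held 15.3 CPM of Psmb8 and 3.90 CPM of Tapbp.

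Promoters of Gbp2, Gbp3 and 15 named genes called higher were read for the 2 interferon motifs. Of the 7 genes with a match, 6 are shown, from the GBP family, antigen processing and the interferon-stimulated genes. They are RefSeq promoters on GRCm38.p6, 250 bases before to 50 after the start site, written 5′ to 3′ on the strand of the gene, and capitals mark matches to the GAS motif TTCNNNGAA or to the ISRE motif, GAAA and GAAA with NN between, on either strand. The windows are chr3:142620413-142620712 (plus strand) for Gbp2, chr3:142559794-142560093 (plus) for the first of 2 Gbp3 promoters, chr3:142530086-142530385 (plus) for Gbp7, chr13:74639603-74639902 (plus) for Erap1, chr4:156200769-156201068 (minus) for Isg15 and chr17:34197945-34198244 (plus) for Psmb8.
Gbp2: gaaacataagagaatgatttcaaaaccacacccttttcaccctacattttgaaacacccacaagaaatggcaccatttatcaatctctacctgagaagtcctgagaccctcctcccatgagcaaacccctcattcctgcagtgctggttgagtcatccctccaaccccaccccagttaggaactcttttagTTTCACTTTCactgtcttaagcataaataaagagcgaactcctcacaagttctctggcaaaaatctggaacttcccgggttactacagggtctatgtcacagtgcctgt
Gbp3: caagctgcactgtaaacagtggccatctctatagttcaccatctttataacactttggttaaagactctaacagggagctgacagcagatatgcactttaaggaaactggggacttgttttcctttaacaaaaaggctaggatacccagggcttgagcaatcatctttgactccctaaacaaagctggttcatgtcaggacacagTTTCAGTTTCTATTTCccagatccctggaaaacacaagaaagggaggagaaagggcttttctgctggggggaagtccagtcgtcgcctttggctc
Gbp7: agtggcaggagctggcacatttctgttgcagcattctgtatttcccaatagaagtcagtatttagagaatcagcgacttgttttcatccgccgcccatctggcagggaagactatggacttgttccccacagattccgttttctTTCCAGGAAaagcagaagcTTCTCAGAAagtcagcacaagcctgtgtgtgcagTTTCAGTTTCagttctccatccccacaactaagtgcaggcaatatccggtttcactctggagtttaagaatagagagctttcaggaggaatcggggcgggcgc
Erap1: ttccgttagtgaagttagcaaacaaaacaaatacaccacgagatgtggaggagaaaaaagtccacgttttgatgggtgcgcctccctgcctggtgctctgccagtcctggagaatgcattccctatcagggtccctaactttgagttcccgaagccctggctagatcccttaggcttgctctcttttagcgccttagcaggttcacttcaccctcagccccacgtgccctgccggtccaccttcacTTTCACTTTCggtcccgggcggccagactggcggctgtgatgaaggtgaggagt
Isg15: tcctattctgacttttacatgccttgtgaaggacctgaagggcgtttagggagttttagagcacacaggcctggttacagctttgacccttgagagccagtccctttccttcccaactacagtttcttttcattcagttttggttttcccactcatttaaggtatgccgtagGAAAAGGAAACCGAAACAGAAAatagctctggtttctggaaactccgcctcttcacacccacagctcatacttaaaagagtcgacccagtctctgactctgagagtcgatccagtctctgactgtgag
Psmb8: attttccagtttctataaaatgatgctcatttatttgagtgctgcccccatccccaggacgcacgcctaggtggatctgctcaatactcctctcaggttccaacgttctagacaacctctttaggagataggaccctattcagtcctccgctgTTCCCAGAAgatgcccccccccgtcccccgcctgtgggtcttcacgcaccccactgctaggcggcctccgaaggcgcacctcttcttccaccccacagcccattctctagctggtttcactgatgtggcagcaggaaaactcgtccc

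Gbp2, Gbp3, Gbp7, Erap1 and Isg15 each held an ISRE match, counted from the base where it starts at -59, -45, -53, -4 and -78 relative to the start site, with an overlapping further match in Gbp3 and further ones in Isg15. Gbp7 also held GAS matches at -106 and -87, and Psmb8 held a GAS match at -97. Ifi35, not shown, held a GAS match at 8 bases past the start site. The windows of the other 10 genes, among them Tapbp, Nt5e and Psme2, held neither motif, which says only that these letters are not in those windows. The start sites are RefSeq's, and the Gbp2 gene of GENCODE begins further upstream. The whole windows of Psmb8, Erap1, Tapbp, Nt5e and Pxdc1 lie inside the genes of GENCODE. Psmb8, Erap1 and Tapbp begin there at chr17:34197721, chr13:74639568 and chr17:33915899. Their matches, or lack of them, therefore do not describe the bases upstream of those genes. ISRE matches occur in 3.44% and GAS matches in 8.30% of all 32851 promoters. Among genes called higher with a promoter in the table, 3 of 52 held ISRE (5.77%) and 6 of 52 held GAS (11.5%), beside 3.37% and 7.91% of 7852 tested genes. A match describes letters and does not show that a factor binds there.

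Of 45 other interferon-stimulated genes listed, 14 passed the filter, 3 were called higher, where 0.681% of all tested genes were, 0 lower and 11 not called (median log2 fold change 0.87, against 0.05 for all genes). Isg15 had 10 or more counts in 15 Gbp-positive and 0 Gbp-negative cells, and Parp14 in 11 and 1. Both passed the filter on Gbp-positive cells alone, and Isg15 could not come out lower, so nothing is read from the number of calls or the median. Isg15, a ubiquitin-like protein, was above 0 in 16 of 35 Gbp-positive cells (highest 107 CPM) and in 0 of 23 Gbp-negative cells, at least 332-fold higher on the floor of 3 counts (adjusted p = 0.00052, permutation test adjusted p = 0.0228). Ifi35 was above 0 in 9 Gbp-positive and 3 Gbp-negative cells (8.56 ± 2.18, adjusted p = 0.0248), and it overlaps the opposite-strand gene Gm11626. Its mean was 22.4 CPM in Gbp-positive and 7.14 CPM in Gbp-negative cells, and its highest Gbp-negative cell held 142 CPM. The means of Ifi35 thus differ far less than its fitted fold change. Parp14, a poly(ADP-ribose) polymerase family member, was above 0 in 12 Gbp-positive and 3 Gbp-negative cells (6.10 ± 1.38, adjusted p = 0.0074). Neither passed the permutation test (adjusted p = 0.359 and 0.249). The members Ifitm1, Ifitm2, Ifitm3 and Bst2 had log2 fold changes of 0.19 ± 0.57, -0.24 ± 0.22, 0.91 ± 0.64 and 0.54 ± 0.63 (adjusted p = 0.989, 0.917, 0.826 and 0.953), and 8 members, among them Ifit3, Mx2 and Oasl1, had 0 counts in all 61 cells.

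Of the interferon receptors and their signalling genes, 0 of 18 tested members were called by edgeR in either direction, where 1.21% of all tested genes were. The permutation test called 1, Irf1, where it called 2.69% of all tested genes. Nothing is read from these counts in so few genes. Irf1, an interferon-responsive transcription factor, averaged 230 ± 241 CPM in Gbp-positive cells and 74.4 ± 150 CPM in Gbp-negative cells (SD; log2 fold change 1.56 ± 0.92, adjusted p = 0.719, permutation test adjusted p = 0.0326). Jak2 fell below the filter, with counts in 11 Gbp-positive and 0 Gbp-negative cells. The receptor genes Ifngr1 (-0.23 ± 1.41), Ifngr2 (0.79 ± 1.15), Ifnar1 (-0.33 ± 0.90) and Ifnar2 (-0.24 ± 1.25) had wide errors. Of the immunity-related GTPases, a second family of interferon-induced GTPases, Irgm1 alone was tested: it averaged 129 ± 197 CPM in Gbp-positive cells and 21.9 ± 49.9 CPM in Gbp-negative cells (2.58 ± 1.08, adjusted p = 0.411, permutation test adjusted p = 0.0162). Igtp and Irgm2, under the filter, were found in 8 and 7 Gbp-positive cells and in 0 Gbp-negative cells. They overlap on 1 strand. Of 13 tested genes of innate sensing and NF-kB, 0 were called by edgeR or by the permutation test, where 1.21% and 2.69% of all tested genes were.

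Further named genes called higher were Nt5e, Ghr, Rgs17, Trim56, Pxdc1, Abcf3 and Tmem185a. Nt5e, the ectonucleotidase CD73, had 0 to 894 CPM in Gbp-positive cells, with a median of 5.69 and 21 of 35 cells above 0, against 0 in all Gbp-negative cells. It was at least 3782-fold higher on the floor of 3 counts, which covers counting error only (adjusted p = 8.9e-05). Ghr, the growth hormone receptor, was above 0 in 28 Gbp-positive and 7 Gbp-negative cells (5.003 ± 1.10, adjusted p = 0.0057). Rgs17, a regulator of G protein signalling, was above 0 in 22 Gbp-positive and 2 Gbp-negative cells (6.69 ± 1.56, adjusted p = 0.0106), and Trim56, a ubiquitin ligase, in 23 Gbp-positive and 2 Gbp-negative cells (5.25 ± 1.13, adjusted p = 0.0045). Pxdc1 (5.87 ± 1.44), Abcf3 (5.33 ± 1.22) and Tmem185a (4.71 ± 1.21) were called too. Each of these 7 had 10 or more counts in 5 or fewer Gbp-negative cells, so all passed the filter on Gbp-positive cells alone. Nt5e, at 0 in every Gbp-negative cell, could not come out lower in any fit. Of these 7, Nt5e alone was called with the naive score as a covariate or in the cells below its gap. With the covariate, Rgs17 had 3.95 (adjusted p = 0.939), Pxdc1 3.69 (1.00), Ghr 3.24 (0.403), Tmem185a 3.65 (0.427), Trim56 4.602 (0.063) and Abcf3 6.09 (0.130).

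Of 7 tested mesendoderm genes, 2 were called higher, Fgf8 and Mixl1, where 0.681% of all tested genes were, and all 7 fold changes were above 0 (median log2 fold change 2.95). Fgf8 had 10 or more counts in 19 Gbp-positive cells and 1 Gbp-negative cell, and Mixl1 in 13 and 1. Both passed the filter on Gbp-positive cells alone, so nothing is read from the number of calls, the signs or the median. Neither was called with the naive score as a covariate (adjusted p = 0.191 for Fgf8 and 0.077 for Mixl1) or below the gap (0.226 and 0.109). Fgf8, a growth factor of the primitive streak, had 0 to 770 CPM in Gbp-positive cells, with a median of 40.1, against 0 to 44.9 CPM with a median of 0 in Gbp-negative cells (6.27 ± 1.41, adjusted p = 0.0070). Mixl1, a homeobox gene of the streak, was above 0 in 15 Gbp-positive cells and 1 Gbp-negative cell (8.13 ± 1.60, adjusted p = 0.0014), without passing the permutation test (adjusted p = 0.109), and its highest cell held 2876 CPM. T, which encodes brachyury, averaged 185 ± 220 CPM in Gbp-positive cells and 20.1 ± 38.8 CPM in Gbp-negative cells (3.27 ± 1.00, adjusted p = 0.108, permutation test adjusted p = 0.0058). Keratin and epithelial junction genes gave 0 calls of 19 in edgeR, where 1.21% of all tested genes were called. By the permutation test 3 were higher, Krt8, Perp and Cldn7, where 1.54% of all tested genes were. Krt8 averaged 1281 ± 2061 CPM in Gbp-positive cells and 254 ± 1018 CPM in Gbp-negative cells (2.21 ± 1.11, adjusted p = 0.586).

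Of 14 tested naive pluripotency genes, 3 were called lower in Gbp-positive cells, 0 higher and 11 not called, where 0.525% of all genes were lower, and all 14 fold changes were below 0 (median log2 fold change -2.87). The permutation test called 6 lower, where it called 1.15% of all tested genes lower. Esrrb, with 10 or more counts in 10 Gbp-negative cells and 1 Gbp-positive cell, passed the filter on Gbp-negative cells alone. Its call and its sign therefore add little to these numbers. Summed over the list, Gbp-positive cells had 80.3 to 10162 CPM with a median of 551, against 213 to 11598 CPM with a median of 8539 in Gbp-negative cells. Dppa5a weighs heavily in these sums, with a mean of 1184 CPM in Gbp-positive and 4940 CPM in Gbp-negative cells. It was lower by the permutation test but not called by edgeR.

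Esrrb, an orphan nuclear receptor of the naive network, had 0 to 8.82 CPM in Gbp-positive cells and 0 to 346 CPM in Gbp-negative cells, and counts of 10 or more in 1 of 35 Gbp-positive and 10 of 23 Gbp-negative cells (log2 fold change -7.50 ± 1.28, adjusted p = 0.00016). Zfp42, also called Rex1, had 0 to 142 CPM with a median of 0.302 in Gbp-positive cells, against 0 to 1748 CPM with a median of 55.8 in Gbp-negative cells (-5.04 ± 0.99, adjusted p = 0.0014). Nr5a2, a nuclear receptor, was above 0 in 4 of 35 Gbp-positive and 11 of 23 Gbp-negative cells (-5.42 ± 1.13, adjusted p = 0.0032). The ranges of all 3 genes overlapped at 0. Nanog, Klf5 and Klf4 did not pass the test, with log2 fold changes of -0.57 ± 0.76, -0.75 ± 0.60 and -1.62 ± 1.07 (adjusted p = 0.964, 0.884 and 0.793).

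Core pluripotency genes stayed detected in both sets. Of 16 tested genes of general pluripotency, 3 had a fold change above 0, and the median log2 fold change was -0.67. The permutation test called 3 of them lower, Sall4, Dppa2 and Rif1, where it called 1.15% of all tested genes lower. Pou5f1, which encodes Oct4, averaged 1007 ± 545 CPM in Gbp-positive cells and 1328 ± 592 CPM in Gbp-negative cells (-0.41 ± 0.22, adjusted p = 0.652). Sall4, a zinc finger factor of pluripotent cells, had 6.47 to 342 CPM in Gbp-positive cells, with a median of 140, against 57.6 to 686 CPM with a median of 260 in Gbp-negative cells (-1.05 ± 0.24, adjusted p = 0.0094). It was the single edgeR call among the 16 genes of general pluripotency, where 1.21% of all tested genes were called. Among 17 genes of DNA methylation, 1 was called by edgeR, where 1.21% of all tested genes were. This was Tet1, which oxidises methylcytosine, and it was lower. Tet1 had a median of 80.0 CPM in Gbp-positive cells and 339 CPM in Gbp-negative cells (-2.18 ± 0.54, adjusted p = 0.019), but lost its call without the cell in C07 (adjusted p = 0.058). Dnmt3l, a cofactor of de novo methylation, was lower by the permutation test (adjusted p = 0.0116; edgeR -2.92 ± 1.11, adjusted p = 0.298). Formative and primed genes gave 0 edgeR calls of 16, and 1 by the permutation test, Sox4, where 1.21% and 2.69% of all tested genes were called.

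The 10 named genes of largest fall included Morc1, Tdrd12, Tex19.1, Rpl39l and Tiam1. Morc1, which silences transposons in male germ cells, had 0 to 3.11 CPM in Gbp-positive cells, against 0 to 781 CPM with a median of 3.67 in Gbp-negative cells (-9.97 ± 1.14, adjusted p = 3.5e-08). Counts of 10 or more were found in 1 Gbp-positive and 12 Gbp-negative cells. Tdrd12, of the piRNA pathway, was above 0 in 2 Gbp-positive and 15 Gbp-negative cells (-7.11 ± 1.32, adjusted p = 0.00067), and Tex19.1, which restrains retrotransposons, in 7 Gbp-positive and 14 Gbp-negative cells (-4.81 ± 1.22, adjusted p = 0.023), though not without the cell in D05 (adjusted p = 0.079). Rpl39l, a ribosomal protein gene paralog, was above 0 in 2 Gbp-positive and 13 Gbp-negative cells (-6.97 ± 1.20, adjusted p = 0.00019). Tiam1, an exchange factor for the GTPase Rac, was at 10 or more counts in 3 Gbp-positive and 12 Gbp-negative cells (-5.72 ± 1.13, adjusted p = 0.0014). Each of these 5 had 10 or more counts in 3 or fewer Gbp-positive cells, so all passed the filter on Gbp-negative cells alone. Of these 5, Morc1 and Tiam1 were called with the naive score as a covariate and below the gap. With the covariate, Rpl39l had -3.94 (adjusted p = 0.634), Tdrd12 -3.94 (0.095) and Tex19.1 -3.22 (0.597), and below the gap none of the 3 was called (0.111, 0.209 and 0.518).

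Tdh, threonine dehydrogenase, whose activity mouse embryonic stem cells depend on, had 0 to 290 CPM with a median of 0 in Gbp-positive cells, against 0 to 1558 CPM with a median of 280 in Gbp-negative cells (-4.23 ± 1.00, adjusted p = 0.0114). At 10 counts or more it was found in 7 of 35 Gbp-positive and 21 of 23 Gbp-negative cells, though the ranges overlapped. Tdh lies on chromosome 14, and without the 6 Gbp-negative cells of low chromosome 14 share its log2 fold change was -4.35 (adjusted p = 0.040). It overlaps Gm17232 on the opposite strand (-4.20 ± 1.01). Mylpf, a skeletal muscle myosin light chain (-4.92 ± 1.15), and Mreg, melanoregulin (-4.93 ± 0.99), fell as well. Platr3, a noncoding RNA (-4.57 ± 1.24, adjusted p = 0.044), lost its call in 35 of 58 fits that each left out 1 cell.

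**Figure D4:**
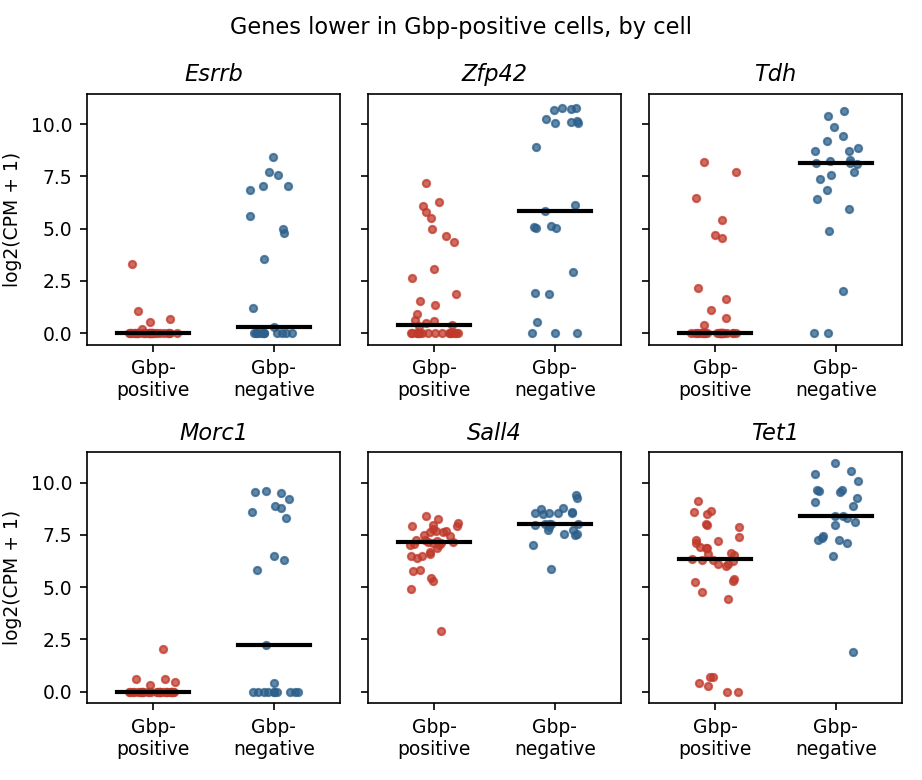
Expression as log2(CPM + 1) (y axis) of 6 genes called lower in Gbp-positive cells, in the 35 Gbp-positive (left) and 23 Gbp-negative cells (right) of each panel; points are cells and black bars are medians. Tdh has 10 or more counts in 7 Gbp-positive and 21 Gbp-negative cells, Sall4 is found in every cell of both sets, and Esrrb and Morc1 are near 0 in Gbp-positive cells.

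Of the 57 lower genes, 9 lie within chr4:145410245-147702553, a region described after the calls were seen: Platr16, Gm13230, Zfp600, Zfp981, Gm21411, Zfp989, Rex2, Zfp978 and Zfp534. It holds 30 tested genes, 29 of them with a fold change below 0, where 0.525% of all tested genes were called lower. The ends of the region were set by the called genes themselves. Many of its genes are zinc finger genes in near-identical copies, so counts of single members are uncertain and may share reads. Nothing is therefore read from the number of calls or of signs. Zfp978 had 0 to 97.8 CPM with a median of 2.75 in Gbp-positive cells, against 3.21 to 612 CPM with a median of 115 in Gbp-negative cells (-3.70 ± 0.70, adjusted p = 0.00083). Rex2 lost its call without the cell in C04 (adjusted p = 0.062).

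Since naive-high cells were Gbp-negative, the fit was repeated with the naive score as a covariate and, as an alternative added after the data were seen, in the 35 Gbp-positive and 13 Gbp-negative cells below the gap. The score as a covariate left 40 genes called (0.368%), 28 higher (0.258%) and 12 lower (0.11%), of which 18 and 11 were called in the first fit. The cells below the gap gave 21 calls (0.193%), 9 higher (0.0828%) and 12 lower (0.11%), of which 8 and 11 were called in the first fit, with fewer cells tested. Of the 74 higher genes, 74 had a fold change above 0 in both fits, and of the 57 lower genes, 54 had one below 0 with the covariate and 56 below the gap, most of either kind without a call. Both fits reuse the cells on which these genes were called, so like signs or calls were likely in advance and give no separate support.

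Gbp7, Erap1, Isg15, Nt5e, Il33, Txnrd2, ENSMUSG00000028269 and Mir6381 were higher, and Morc1, Tiam1, Manba, Tst, Pif1, Slc16a4, Rhox13 and Gm13929 were lower, in all 3 fits. Counts of Mir6381 cannot be told apart from reads of Gbp2, on which the cells were chosen, so its calls are no result. Gbp7, Isg15, Nt5e and Mir6381 had no counts in Gbp-negative cells, and Rhox13 none in Gbp-positive cells, so their direction was fixed in every fit. Of the 35 named genes, 9 were called with the covariate and 7 below the gap, and the rest in neither. Below the gap Erap1 had a log2 fold change of 9.32 (adjusted p = 0.00063) and Morc1 of -8.00 (adjusted p = 0.00053). Psmb8 had 4.90 with the covariate (adjusted p = 0.0154) and 4.58 below the gap (adjusted p = 0.109), Tapbp 2.73 and 2.98 (adjusted p = 0.356 and 0.112), and Psme2 1.74 and 1.79 (adjusted p = 0.246 and 0.077). Zfp42, a member of the score, had -0.74 with the covariate and -0.49 below the gap, and Esrrb, also a member, had 1.59 and 0.60. Mreg had 0.14 with the covariate and -0.80 below the gap. Without the 6 Gbp-negative cells of low chromosome 14 share, 84 genes were called (0.773%), 42 higher (0.387%) and 42 lower (0.387%), and 34 and 37 of them were called in the first fit.

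**Figure D5:**
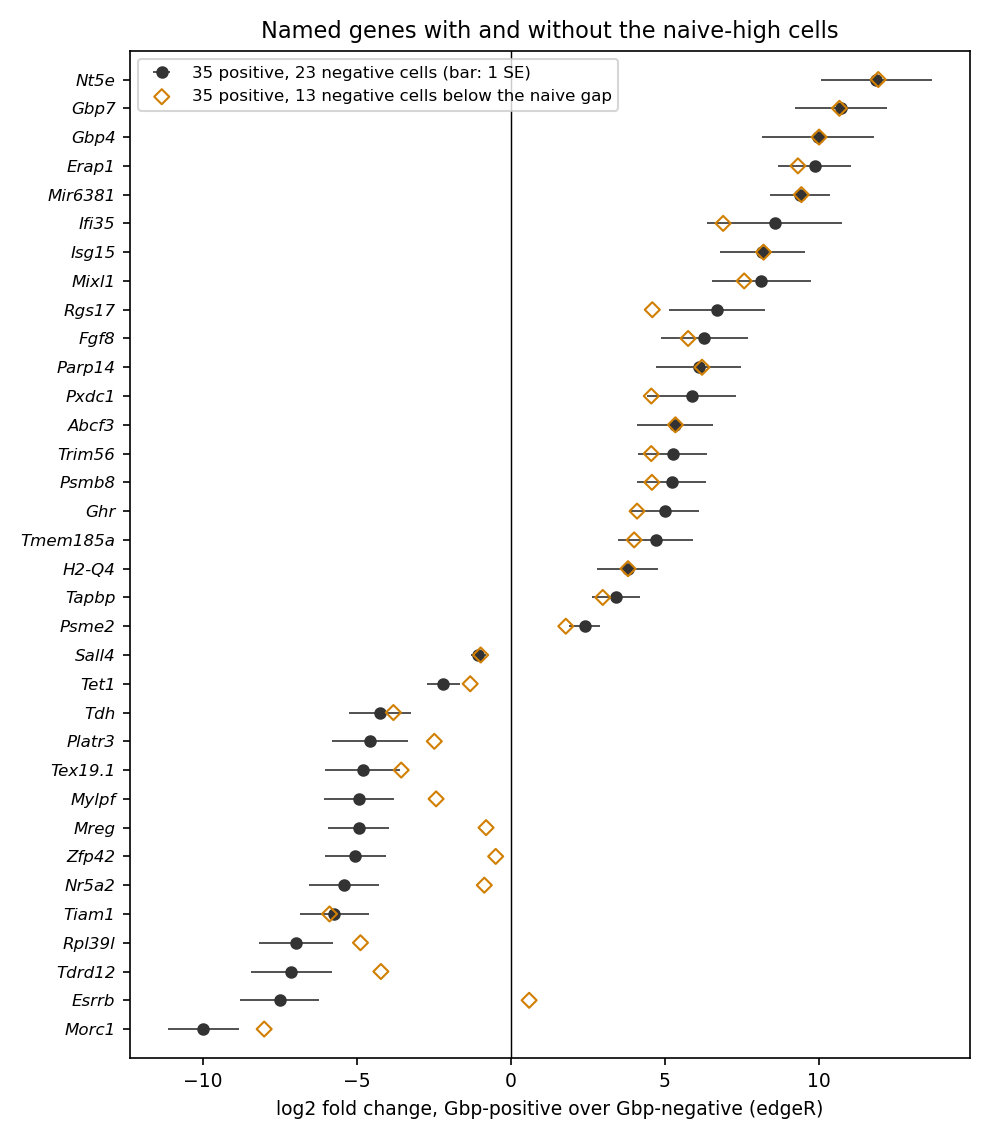
Log2 fold change of Gbp-positive over Gbp-negative cells (x axis) for 34 named genes (y axis), from all 58 cells (filled circles, bars 1 SE) and from the 48 cells below the naive gap (open diamonds). Diamonds of Gbp7, Nt5e, Isg15 and Tiam1 lie on or beside their circles, while those of Esrrb, Zfp42, Nr5a2 and Mreg lie near 0.

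Some markers of other cell types were abundant. Of 14 haematopoietic markers, 1 was tested and 6, among them Ptprc and Lyz2, had 0 counts in all cells, and the summed list ranged from 0 to 68.2 CPM in Gbp-positive and 0 to 127 CPM in Gbp-negative cells. Of 15 fibroblast markers, 3 were tested (Tagln, Fn1 and Vim), and 0 were called by edgeR, where 1.21% of all tested genes were. Tagln was higher by the permutation test (adjusted p = 0.0025). Tagln averaged 442 CPM in Gbp-positive and 162 CPM in Gbp-negative cells, Fn1 379 CPM in Gbp-positive and 112 CPM in Gbp-negative cells, and Vim 170 CPM in Gbp-positive and 64.05 CPM in Gbp-negative cells. The list had summed levels of 0.800 to 5976 CPM in Gbp-positive and 2.95 to 2380 CPM in Gbp-negative cells. Col1a1 was found in 5 Gbp-positive cells and 1 Gbp-negative cell, and Postn and Fap were at 0. Primitive endoderm (5 tested of 16), trophectoderm (3 of 10) and neurectoderm (5 of 10) markers gave 0 edgeR calls, beside the 1.21% of all tested genes. Sparc was higher by the permutation test (adjusted p = 0.0441). Sparc averaged 565 CPM in Gbp-positive and 202 CPM in Gbp-negative cells, and Lamb1 288 CPM in Gbp-positive and 145 CPM in Gbp-negative cells. The endoderm factor Gata6 was found in 3 Gbp-positive and 0 Gbp-negative cells. Of 8 markers of 2-cell-like cells, 0 were tested, with summed levels up to 2.73 CPM in Gbp-positive and 1.52 CPM in Gbp-negative cells. Their part in the results was not tested.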

How the data were processed

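Single-cell libraries were made, per the labels' protocols, from mRNA parted from DNA by G&T-seq, with the Nextera XT kit. The deposited table holds raw counts per gene, which the authors made with GSNAP, SAMtools 0.1.18 and bedtools 2.19.1 on GRCm38, per the submitters' processing notes, which also name DESeq2. Neither the counting rule nor whether strand was used is given in the sources used here. A normalized table was not used, because its size factors run along genes. No molecular identifiers are named, and counted reads may be copies of 1 molecule, so floors cover counting error only.

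Genes that reached 10 counts in 10 or more of the 61 cells were kept. Cells were compared by edgeR 4.0.16 (TMM scaling, quasi-likelihood test, the share of detected genes as a covariate, Benjamini-Hochberg adjusted p under 0.05), in R 4.3.3. The SE of a fold change is approximate, the fold change divided by the square root of its F. Alternatives were a two-sided permutation test (100000 resamples, pseudocount 1), limma 3.58.1, DESeq2 1.42.0 and other filters, limits, covariates and sets of cells. On simulated counts for 10868 genes, edgeR recovered 40% of genes changed by 2 and 73% of genes changed by 4 log2 units with 94 false calls, more than its threshold allows, and the permutation test recovered 31% and 41% with 5. Named genes were the 15 higher and 10 lower called genes of largest fold change, among those with 10 or more counts in at least 50% of the cells of the higher group and a gene symbol that is no Gm or Rik name, and up to 4 called members of each list, and 1 of them is not reported here. Other genes named for context or contrast were picked after their values were seen. The cells, the 25 gene lists and most alternatives were chosen with earlier results of these data known. LIF and STAT3 (12), ERK (13), p53 (12), stress (11), S phase (23), G2/M (24) and mitochondrial (11) genes tested gave 0 edgeR calls, where 1.21% of all tested genes were called. The permutation test called Junb higher among the LIF and stress genes, Egr1 among the ERK and stress genes and Dusp6 among the ERK genes.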

Additional observations from a re-analysis of the deposited data

How the results depend on the processing

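Of 21 alternatives, counts are given in the order genes higher (74 in the report), genes lower (57), list members called (17) and named genes called (35), for those that moved a count by over 1.5 times. DESeq2 called 121 genes higher, limma-trend called 208 higher, 153 lower and 41 list members, and the permutation test called 167 higher, 125 lower and 35 list members. No filter beyond a count in 3 cells gave 1075 higher, 820 lower and 27 list members, and a filter of 10 counts in 20 cells gave 27 higher, 20 lower, 10 list members and 21 named genes. Cells chosen by Gbp3 alone gave 30 higher, 28 lower and 16 named genes. Plate rows A to D gave 16 higher, 22 lower, 7 list members and 10 named genes, and rows E to H gave 15 higher, 27 lower, 1 list member and 9 named genes, each with fewer cells. The naive score as a covariate gave 28 higher, 12 lower, 5 list members and 9 named genes. The cells below the naive gap gave 9 higher, 12 lower, 3 list members and 7 named genes, and the cells without low chromosome 14 share gave 42 higher and 22 named genes, both added after the data were seen. Esrrb changed sign with the naive covariate (1.59) and below the gap (0.597), and Mreg changed sign with the covariate (0.140); the score holds Esrrb itself, and for Mreg the cause was not tested. Leaving out each of 58 cells in turn gave 65 to 108 higher, 47 to 69 lower, 16 to 20 list members and 33 to 35 named genes. With cells chosen at 1 count or more, and without the cells of highest mitochondrial share and fewest genes, the difference in naive score was -1.04 and -1.08 (adjusted p = 0.00096 and 0.00048) and that in chromosome 14 share 0.393 and 0.422 points (0.0027 and 0.00088), and the other 6 cell measures did not pass the test. No paired analysis was possible because each sample is 1 cell with no replicate number that pairs cells across the sets. The number of cells limits genes found in few of them, and genes under the filter were not tested.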

Other observations

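Among abundant genes, picked after their values were seen, S100a10, a calcium-binding family protein that joins annexin A2, averaged 1427 ± 902 CPM in Gbp-positive cells and 350 ± 412 CPM in Gbp-negative cells (SD; log2 fold change 1.98 ± 0.39, adjusted p = 0.0014, edgeR). Tpm1, a tropomyosin of actin filaments, averaged 1237 ± 890 CPM in Gbp-positive cells and 317 ± 544 CPM in Gbp-negative cells (1.95 ± 0.49, adjusted p = 0.022). Car2, a carbonic anhydrase, averaged 2331 ± 1450 CPM in Gbp-positive cells and 855 ± 637 CPM in Gbp-negative cells (1.28 ± 0.32, adjusted p = 0.019). Mtf2, a Polycomb-associated factor, averaged 367 ± 221 CPM in Gbp-positive cells and 895 ± 657 CPM in Gbp-negative cells (-1.19 ± 0.25, adjusted p = 0.0038), and Set, a histone chaperone, 1599 ± 612 CPM in Gbp-positive and 2740 ± 1100 CPM in Gbp-negative cells (-0.63 ± 0.13, adjusted p = 0.0045). Without the Gbp-negative cells of low chromosome 14 share, the adjusted p was 0.025 for S100a10, 0.179 for Tpm1, 0.040 for Car2, 0.112 for Mtf2 and 0.025 for Set, and below the naive gap none of the 5 passed.

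Il33, an alarmin cytokine, was above 0 in 17 of 35 Gbp-positive cells (highest 283 CPM) and in 1 of 23 Gbp-negative cells (3.94 CPM), with a log2 fold change of 8.50 ± 1.34 (adjusted p = 4.0e-05, edgeR) and of 8.50 below the naive gap (adjusted p = 0.039). Rhox13, a homeobox gene of the reproductive cluster, was at 0 in all 35 Gbp-positive cells and above 0 in 10 of 23 Gbp-negative cells, at least 406-fold lower on the floor of 3 counts summed over the Gbp-positive cells (adjusted p = 0.00019). Txnrd2 lost its call without the cell in G09 (adjusted p = 0.054). Of the left-out cells, C10 held 124 CPM of Nt5e and 33.8 CPM of Psmb8, while H03, which lies above the naive gap, held 728 CPM of Zfp42 and 112 CPM of Morc1.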
